A study of Mus musculus with 56 samples.

Results

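The genes of the urea cycle and of hepatic ammonia handling were followed in the liver across a day under 2 feeding schedules. The set holds 10 genes, taken by symbol from the gene table and paired with identifiers and positions (GRCm38) by GENCODE vM21. They are Cps1, Otc, Ass1, Asl, Arg1, Nags, Slc25a15, Slc25a13, Glud1 and Gls2, which makes 10 of 25415 genes listed, and all 10 were among the 25253 genes tested. The livers came from 56 female C57BL/6J mice aged 9 weeks, kept under 12 h of light and 12 h of darkness with normal chow, after 7 days of restricted feeding, with food given by day (daytime-restricted, DRF) or by night (nighttime-restricted, NRF, the reference). Each regimen was sampled every 4 h from ZT0 to ZT24, where ZT counts the hours from lights on, with 4 mice in each of 14 groups, and each mouse gave 1 liver at 1 time. The labels name no engineered allele and no drug. The hours at which food was given are not stated in the sources used here.

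The urea cycle turns ammonia and a second nitrogen from aspartate into urea, which leaves the body in urine, and it is complete in hepatocytes around the portal vein. Carbamoyl phosphate synthetase, encoded by Cps1, commits ammonia to the cycle inside the mitochondrion, and it needs N-acetylglutamate, the product of Nags, to be active. Ornithine transcarbamylase (Otc) makes citrulline there, and argininosuccinate synthase (Ass1), argininosuccinate lyase (Asl) and arginase (Arg1) close the cycle in the cytosol. Slc25a15 carries ornithine and citrulline across the inner mitochondrial membrane, and Slc25a13 (citrin) brings aspartate out to the cytosol. Glutamate dehydrogenase (Glud1) and liver glutaminase (Gls2) release ammonia from glutamate and glutamine.

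Levels are given as scaled counts, the deposited value of a gene turned back through the logarithm it was deposited on, which is close to a count scaled to a common library size. The 56 libraries summed to between 831239 and 1036660 scaled counts over the tested genes, and 4 of the 4 tested hepatocyte markers (Alb, Apoa1, Serpina1c and Fgb) were abundant, with a summed level of 78597 to 135767. Kupffer cell, sinusoidal endothelial and stellate cell markers were also present in every liver, as in whole tissue. In bulk liver, fewer cells of a type and less RNA per cell cannot be told apart. The 4 mice of a group are the replicates, and the labels give no batch or date. Comparisons at set times were judged against the spread of livers within groups. For rhythms and daily means the spread was that around the fitted cosine. A gene was called when its limma adjusted p (Benjamini-Hochberg over 25253 genes) was under 0.05.

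To place the members by abundance, scaled counts were divided by exon length. Ass1 stood first with 4133 ± 1061 scaled counts per kb (SD, n = 56) and Cps1 second with 3671 ± 964. Their spreads overlapped, and Ass1 was above Cps1 in 44 of 56 livers. Arg1 (417 ± 101), Glud1 (330.2 ± 45.2), Otc (259.6 ± 32.3) and Slc25a13 (252 ± 43.6) followed. Neighbours in that run were not separated beyond their spread, and Otc exceeded Slc25a13 in 37 of 56 livers. Asl (101 ± 34.2), Gls2 (70.9 ± 14.6) and Slc25a15 (53.5 ± 14.2) were lower, again with overlapping spreads. Nags, the regulator, was lowest at 6.79 ± 1.26 per kb, and every other member was above it in all 56 livers. For Cps1, Ass1 and Glud1 the recovered counts were too deep to check the exon length behind them. For Otc, Asl, Arg1, Slc25a15, Slc25a13 and Gls2 the length was accepted at a wider tolerance of 0.2 from a whole number, and within 0.05 the share of whole values was 32.1% for Otc, 39.3% for Arg1, 42.9% for Slc25a13 and 64.3% for Asl, against 10% by chance, with 91.1% for Slc25a15 and 100% for Gls2. Nags was whole in 100% of libraries. The order by level is thus less sure than the differences between groups.

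Next, it was asked whether each member cycled over 24 h in either regimen. A 24-h rhythm was called in 10 of 10 members under DRF (34.7% of all genes tested) and in 9 of 10 under NRF (43.3%), Glud1 being the exception with an adjusted p of 0.449. Thus 9 of 10 members were dual-oscillating, against 22.9% of all genes. The timing of these rhythms did not move as a block between regimens. The rhythm itself differed between DRF and NRF in 6 of 10 members (38.5% of all genes), namely Asl, Arg1, Nags, Slc25a15, Slc25a13 and Glud1. No difference in rhythm was called for Cps1, Otc, Ass1 and Gls2. The fitted peaks of these 4, and also of Asl, Arg1, Slc25a15 and Slc25a13, fell in the dark phase under both regimens. Calls were more frequent among abundant genes. Of the 4515 genes with a mean level at least that of Nags, the lowest member, 60.9% had a rhythm under DRF, 65.6% had one under NRF and 64.0% differed in rhythm, so that 6 of 10 members is close to the share among such genes.

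**Figure D1:**
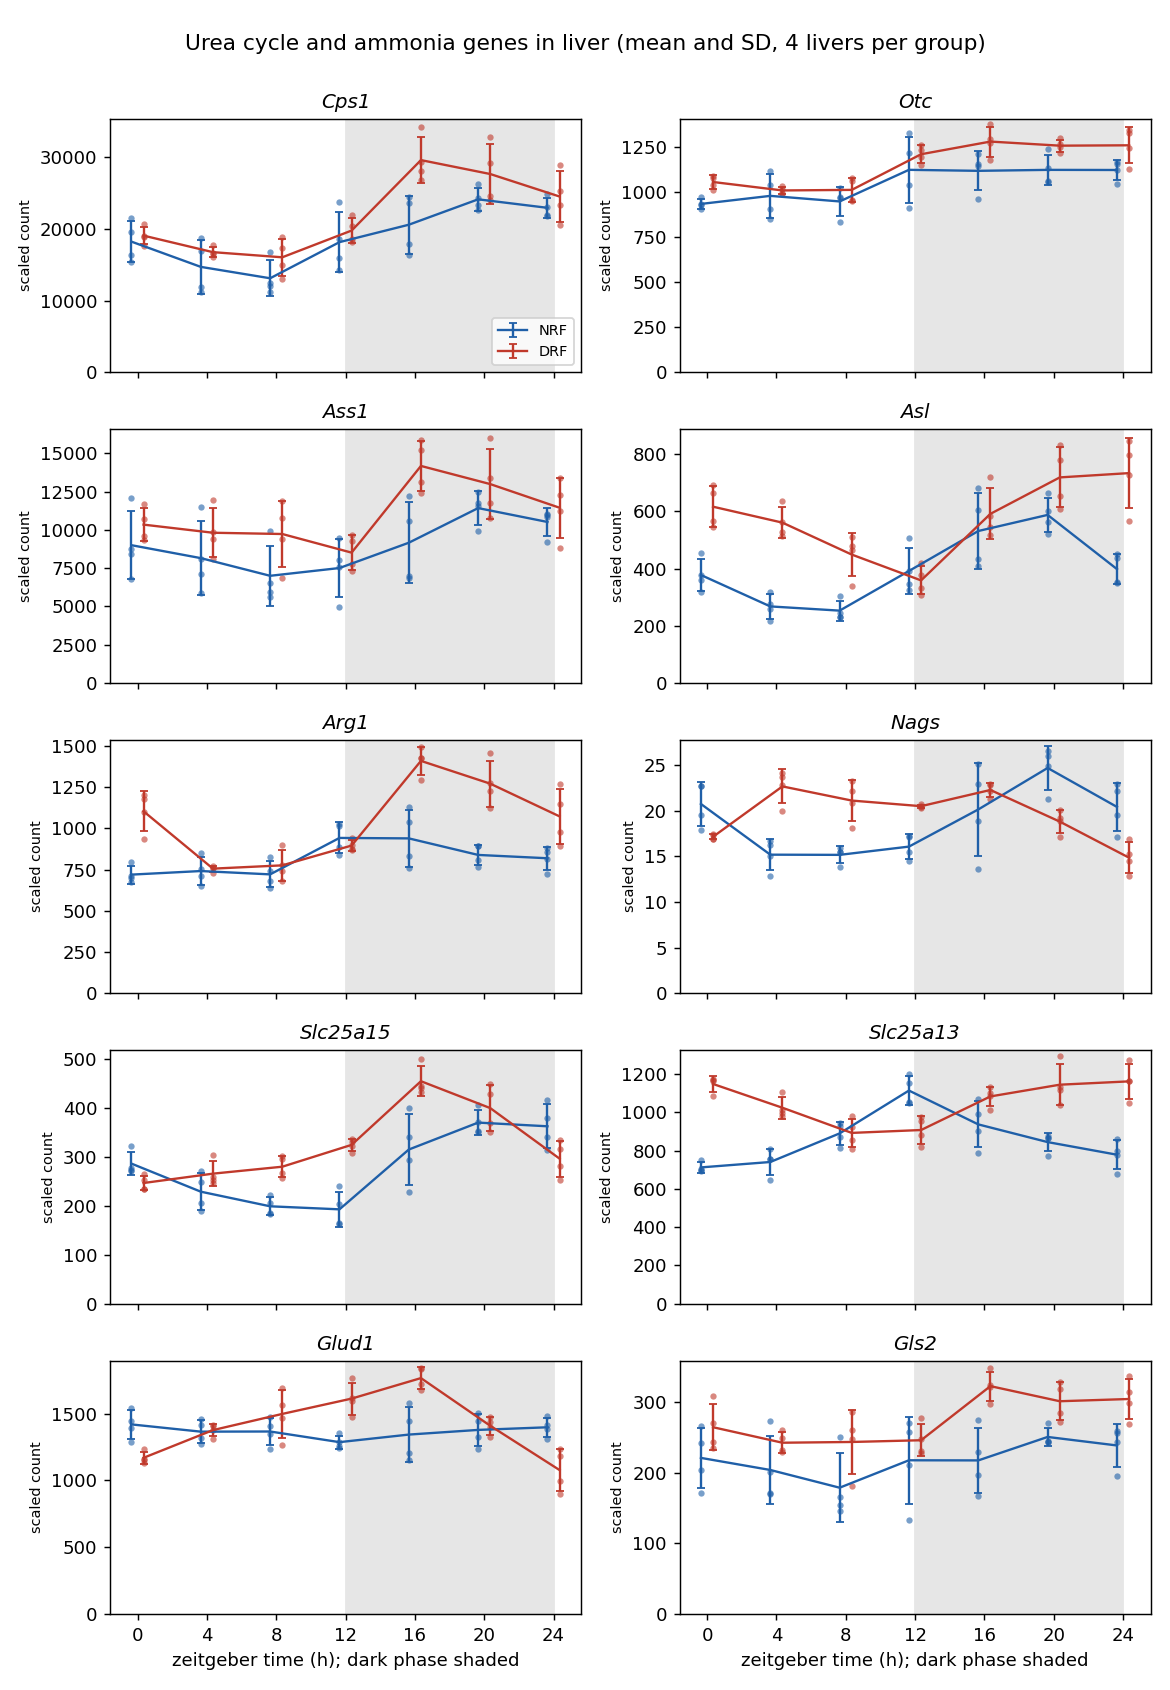
Scaled counts of the 10 members (vertical axes from 0) against zeitgeber time (h), with NRF in blue and DRF in red; points are single livers and lines join group means with SD (n = 4), and the dark phase is shaded. Cps1, Otc, Ass1 and Gls2 rise in the dark phase in both regimens. The DRF and NRF curves cross in Nags, Slc25a15, Slc25a13 and Glud1, and in Asl and Arg1 near ZT12.

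Cps1 (ENSMUSG00000025991, chr1:67123026-67231259, plus strand) was highest in the dark phase whichever way the mice were fed. Under DRF the 4 livers at ZT8 held 13003, 14968, 17288 and 18954 scaled counts, and those at ZT16 held 26884, 28096, 29307 and 34223. Under NRF the trough was also at ZT8, with 11157, 12112, 12438 and 16790.5, and the highest group was ZT20, with 22609, 23336, 24306 and 26342. In both regimens the trough and peak groups did not overlap, and the highest group mean was 1.85 and 1.84 times the lowest under DRF and NRF. Here and for the genes below, highest and lowest groups were picked by their means. That choice favours separation between them, so it is a description and not a test of a rhythm. The fitted peaks were at ZT18.2 ± 0.439 h (SE) under DRF and ZT19.3 ± 0.608 h under NRF (adjusted p = 1.43e-05 and 3.02e-05, limma). The DRF peak minus the NRF peak was -1.14 h (95% interval -2.64 to 0.37), and the adjusted p for a difference in rhythm was 0.597.

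Otc (ENSMUSG00000031173, chrX:10252305-10321024, plus strand) cycled in the same part of the day with a smaller swing. Its group means ran from 1008 ± 21.2 (SD, n = 4) at ZT4 to 1279 ± 83.2 at ZT16 under DRF, and from 933 ± 26.7 at ZT0 to 1122 ± 184 at ZT12 under NRF. The 4 DRF livers at ZT16 (1176, 1268, 1293 and 1378) lay above the 4 at ZT4 (986, 996, 1015 and 1034), while under NRF the ZT12 group was wide (911, 1036, 1216 and 1325) and overlapped all 6 other NRF times. The shift was 0.63 h (95% interval -1.84 to 3.10). Otc kept its NRF call under limma (adjusted p = 0.0156) but not under an exact Kendall rank test (adjusted p = 0.143).

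Nags (ENSMUSG00000048217, chr11:102145513-102149477, plus strand), whose product switches Cps1 on, was timed like Cps1 under NRF but not under DRF. The fitted peaks of Nags and Cps1 were at ZT19.8 and ZT19.3 under NRF, and at ZT10.8 and ZT18.2 under DRF. Under NRF Nags was lowest in the light phase, at 13.8, 15.5, 15.5 and 15.9 scaled counts in the 4 livers at ZT8. It was highest at ZT20 with 21.3, 24.9, 26.0 and 26.6. Under DRF the light-phase livers at ZT4 held 20.01, 22.8, 23.7 and 24.2, and those at ZT24 only 12.8, 14.5, 15.2 and 16.9. At ZT4 every DRF liver was above every NRF liver (12.8, 15.0, 16.2 and 16.7). The regimens were likewise apart at ZT4, in either direction, in 22.2% of all genes tested. The fitted peak moved from ZT19.8 ± 0.532 h to ZT10.8 ± 1.10 h, a shift of -9.07 h (95% interval -11.52 to -6.61) with an adjusted p of 3.58e-07 for the change in rhythm. Under DRF the group means from ZT4 to ZT16 lay between 20.5 ± 0.168 and 22.7 ± 1.86 (SD, n = 4). They were highest at ZT4 and ZT16 (22.3 ± 0.752), on either side of the fitted DRF peak. A 12-h component was also called under DRF, with limits given below. The DRF rhythm was not called without the 8 livers taken at ZT24 (adjusted p = 0.15). Of its exon bases 15.6% overlap Gm11586 on the other strand, and whether the counting used strand is not given in the sources used here.

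Among the cytosolic enzymes, Ass1 (ENSMUSG00000076441, chr2:31470207-31520672, plus strand) was higher in the dark phase in both regimens, with wide spreads. The 4 DRF livers held 7329, 7757, 9255 and 9683 scaled counts at ZT12, the lowest group, and 12434, 13148, 15213 and 15899.5 at ZT16, the highest. Under NRF the lowest group held 5632, 5950.4, 6495 and 9888 at ZT8 and the highest 9913, 11534, 11725 and 12501 at ZT20. The shift was -1.78 h (95% interval -4.41 to 0.84), and the rhythm was called under DRF (adjusted p = 0.0217) and NRF (0.00275). The DRF call was lost without DRF ZT8 replicate 2 (adjusted p = 0.0632), without DRF ZT20 replicate 3 (0.0544) and in the rank test (0.0577). Ass1 shares 1240 transcript bases at 99.5% identity with Gm5424, so reads of the 2 genes may be divided between them. Gm5424 averaged 95.1 scaled counts, against 9977 for Ass1.

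Asl (ENSMUSG00000025533, chr5:130011258-130029247, minus strand) peaked later under DRF. In NRF livers it ran from 230.2, 231, 246 and 304 scaled counts at ZT8 to 522, 563, 602 and 665 at ZT20. In DRF livers the trough was at ZT12 (309, 331, 376 and 419) and the highest group at ZT24 (567, 728, 796 and 846). At ZT4 the 4 DRF livers (515, 528, 564 and 637) were all above the 4 NRF livers (215, 259, 276 and 319), and 22.2% of all genes did not overlap there in either direction. The peak moved from ZT18.1 ± 0.455 h to ZT21.9 ± 0.528 h, a shift of 3.76 h (95% interval 2.36 to 5.16). The amplitude differed by -9.11 scaled counts, with a wide 95% interval (-72.9 to 54.6). As a share of the fitted mean, the amplitude was 29.5% under DRF and 43.3% under NRF.

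Arg1 (ENSMUSG00000019987, chr10:24915221-24927484, minus strand), the last step of the cycle, was shallow under NRF and steep under DRF. NRF group means stayed between 719 ± 54.1 at ZT0 and 941 ± 93.9 at ZT12. Under DRF the 4 livers went from 732, 758, 758 and 774 at ZT4 to 1292, 1423, 1425 and 1494 at ZT16, and the latter were above all 28 NRF livers, the highest of which held 1126. The amplitude was 334 ± 31.5 (SE) scaled counts under DRF and 114 ± 30.3 under NRF, a difference of 221 (95% interval 133 to 308). Its peak shifted by 2.91 h (95% interval 0.84 to 4.99), and the change in rhythm had an adjusted p of 3.81e-05. On the values as deposited the shift was 1.48 h and the change in rhythm was not called (adjusted p = 0.0654).

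The 2 carriers moved in opposite directions. Slc25a15 (ENSMUSG00000031482, chr8:22375551-22398597, minus strand) peaked earlier under DRF, at ZT16.5 ± 0.443 h against ZT20.5 ± 0.470 h, a shift of -3.97 h (95% interval -5.27 to -2.68). At ZT12 its DRF livers held 307, 322, 330.4 and 336 scaled counts and its NRF livers 162, 166, 203 and 239, with no overlap. Slc25a13 (ENSMUSG00000015112, chr6:6041218-6217173, minus strand) peaked later under DRF, at ZT21.5 ± 0.549 h against ZT13.0 ± 0.514 h, a shift of 8.44 h (95% interval 6.93 to 9.95). On the values as deposited the Slc25a13 shift was 4.34 h, outside this interval. At ZT0 its DRF livers held 1084, 1164, 1171 and 1172 and its NRF livers 692, 698, 705 and 753, and at ZT12 the order was turned, with 819, 880.1, 956 and 975 under DRF and 1046, 1056, 1150.5 and 1201 under NRF. The adjusted p for the change in rhythm was 5.10e-11 for Slc25a13 and 1.09e-06 for Slc25a15.

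The 2 ammonia-releasing enzymes also parted. Glud1 (ENSMUSG00000021794, chr14:34310727-34345265, plus strand) was level under NRF, where its group means lay between 1287 ± 48.7 and 1419 ± 106. Under DRF its 4 livers climbed to 1673, 1719, 1830.1 and 1839 scaled counts at ZT16, the highest group, and stood at 899.5, 996, 1179 and 1236 at ZT24, the lowest. The DRF peak was at ZT13.2 ± 0.481 h, and the amplitude exceeded that under NRF by 231 scaled counts (95% interval 141 to 320.1). No shift on scaled counts is given for Glud1, since no NRF rhythm was called on them. Gls2 (ENSMUSG00000044005, chr10:128194457-128210004, plus strand) was highest in the dark phase in both regimens, with 297, 320.4, 323 and 347 at ZT16 under DRF and 243, 243, 244 and 269.9 at ZT20 under NRF. Its shift was -1.04 h (95% interval -4.21 to 2.13). The NRF rhythm of Gls2 was a marginal call (adjusted p = 0.0258), lost without NRF ZT8 replicate 1 (0.0579), replicate 2 (0.0737) or replicate 4 (0.0875), without the ZT24 livers (0.0579) and in the rank test (0.396), and its DRF rhythm (0.0266) was lost without DRF ZT8 replicate 2 (0.088).

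Clock transcripts measured in the same livers give a scale for these shifts. Arntl (Bmal1), a core activator of the clock, peaked at ZT12.1 under DRF and ZT22.7 under NRF, 10.6 ± 0.319 h (SE) apart. Per2, a clock repressor, was 11.8 ± 0.539 h apart and Dbp, a clock output factor, 10.2 ± 0.731 h apart. The shifts of Cps1, Otc, Ass1 and Gls2 had 95% intervals that held 0, the widest being that of Gls2. The intervals of Asl, Arg1 and Slc25a15 left out 0. Only the intervals of Nags and Slc25a13 lay wholly above those of the other 7 in size among the 9 members rhythmic in both regimens, on scaled counts. On the values as deposited the shifts of Nags and Slc25a13 were both smaller in size, each outside its interval. The DRF rhythm of Nags was also not called without the ZT24 livers, as given above.

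**Figure D2:**
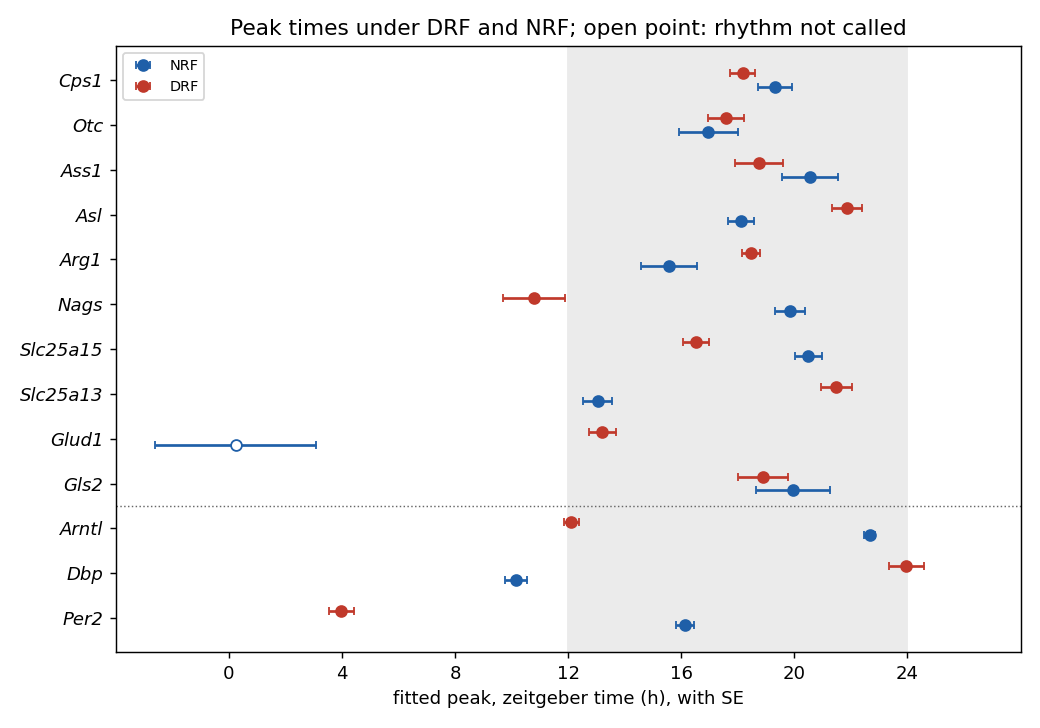
Fitted peak time (zeitgeber time, h, with SE) of the 10 members and, below the dotted line, 3 clock genes, under NRF (blue) and DRF (red); the open point marks a rhythm that was not called. The 2 points of Cps1, Otc, Ass1 and Gls2 lie within 1.78 h of each other, while those of Arntl, Dbp and Per2 lie at least 10.2 h apart.

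To determine whether daily output differed, the daily means of the 28 livers of each regimen were compared. The mean differed in 8 of 10 members (6.71% of all genes), higher under DRF in 8 and lower in 0, against 4.04% of all genes called higher and 2.67% called lower. Among the 4515 genes at least as abundant as Nags the mean differed in 17.9%. Across the 10 members the median log2 difference was 0.27, against -0.0018 over all genes. Asl had the widest difference, 0.50 ± 0.06 (SE) on the log2 scale (adjusted p = 7.65e-08). Its DRF livers lay between 309 and 846 with a median of 565 scaled counts and its NRF livers between 215 and 683 with a median of 369. Gls2 (0.35 ± 0.06 (SE)), Ass1 (0.33 ± 0.08 (SE)), Slc25a15 (0.30 ± 0.05 (SE)) and Arg1 (0.30 ± 0.04 (SE)) followed, with adjusted p-values of 9.34e-05, 0.0067, 9.64e-05 and 3.20e-06. The regimens overlapped in each of these genes, with livers of all times together.

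Slc25a13 differed by 0.24 ± 0.03 (SE) (adjusted p = 3.76e-07), and 26 of 28 DRF livers were above the NRF median. Otc differed by 0.14 ± 0.04 (SE) (adjusted p = 0.0117). Cps1 differed by 0.24 ± 0.07 (SE) with an adjusted p of 0.034, which rose to between 0.0533 and 0.0567 without DRF ZT8 replicate 4, DRF ZT16 replicate 1, NRF ZT8 replicate 4, NRF ZT12 replicate 1, NRF ZT16 replicate 1 or NRF ZT16 replicate 3. For Nags (0.11 ± 0.05 (SE), adjusted p = 0.176) and Glud1 (0.08 ± 0.04 (SE), adjusted p = 0.202) no difference in the mean was called.

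**Figure D3:**
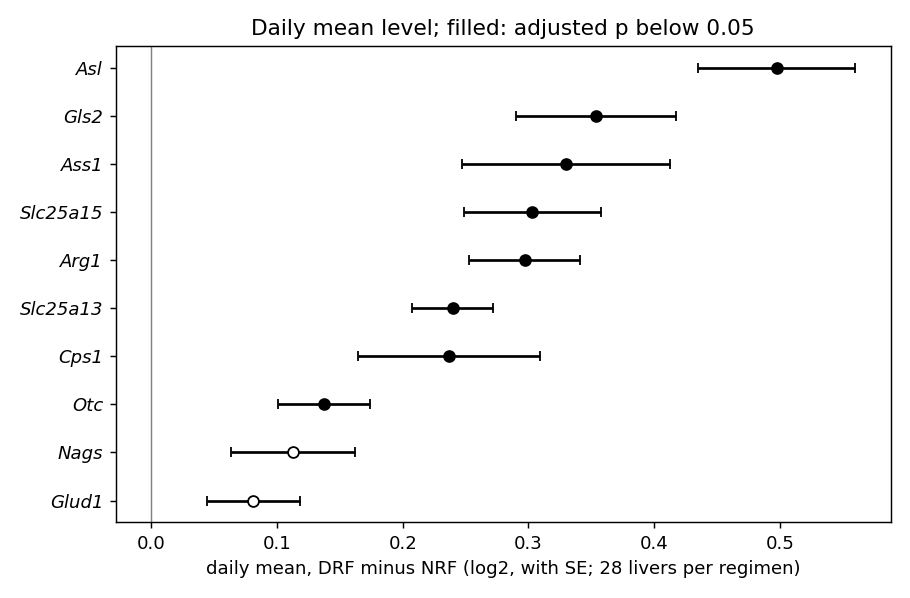
Difference in daily mean between DRF and NRF (log2 of scaled count + 1, with SE, 28 livers per regimen) for the 10 members, ordered by size; filled points have an adjusted p under 0.05. All 10 points lie above 0, from 0.08 for Glud1 to 0.50 for Asl.

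Markers of zones and cell types moved in part with this result. All 5 periportal hepatocyte markers (Sds, Hal, Cyp2f2, Hsd17b13 and Aldh1b1) had a higher daily mean under DRF. Of these 5, 3 also differed in rhythm between regimens (38.5% of all genes). Their summed level was 1487 to 2317 scaled counts in DRF livers and 1288 to 1938 in NRF livers. With the log2 of that sum as a covariate, a fit added after the data were seen, 2 of 10 members kept a called difference, Asl (0.30, adjusted p = 0.0111) and Slc25a13 (0.15, adjusted p = 0.0216), and the other 8 ran from 0.04 (Nags) to 0.20 (Slc25a15). Of the 6 pericentral markers 2 were higher and 0 lower under DRF, and of the 4 tested hepatocyte markers 3 were lower. All 3 red blood cell markers were higher under DRF (sum 477 to 1785 against 389 to 1127). With their sum as the covariate, also added later, 5 of 10 members were called (Asl, Arg1, Slc25a15, Slc25a13 and Gls2), while Cps1 (0.23, adjusted p = 0.177), Otc (0.13, adjusted p = 0.107) and Ass1 (0.30, adjusted p = 0.0904) were not. The log2 differences of these 3 without the covariate were 0.24, 0.14 and 0.33. The share of all genes called with either covariate was not counted. A loss of calls in the members thus cannot be told from a loss in genes at large. Of the 2 tested kidney or intestine markers 1 was higher. Of the 5 Kupffer, 5 sinusoidal endothelial, 5 stellate, 5 cholangiocyte and 4 lymphocyte markers 0 differed in the mean.

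At matched clock times the members differed between regimens at different hours. A difference at some time was called in 9 of 10 members (42.2% of all genes, and 72.6% of the 4515 abundant ones), and for Cps1 the adjusted p was 0.127. The call for Ass1 (adjusted p = 0.0391) was lost, with values of 0.0503 to 0.0926, without any 1 of 13 livers (DRF ZT4 replicate 4, DRF ZT8 replicates 1, 3 and 4, DRF ZT16 replicates 1, 3 and 4, NRF ZT4 replicate 4, NRF ZT8 replicates 1, 2 and 4, and NRF ZT16 replicates 1 and 3). In the light phase 4 members were called at ZT0 (15.9% of all genes and 31.7% of the abundant ones), 3 at ZT4 (20.2% and 38.3%) and 3 at ZT8 (12.8% and 26.0%). From lights off the number was 4 at ZT12 (15.0% and 28.5%), 6 at ZT16 (15.0% and 30.7%) and 3 at ZT20 (13.6% and 28.1%). At ZT24 5 were called (13.9% and 29.6%). Most of these counts out of 10 were near the share among the abundant genes, and that at ZT4 was below it. At ZT16, Cps1 (0.54 ± 0.18 (SE)), Ass1 (0.67 ± 0.21 (SE)), Arg1 (0.60 ± 0.11 (SE)), Slc25a15 (0.55 ± 0.12 (SE)), Glud1 (0.41 ± 0.09 (SE)) and Gls2 (0.59 ± 0.17 (SE)) were all higher under DRF on the log2 scale (8.62% of all genes were called higher). Asl was called at none of ZT12, ZT16 and ZT20 but was higher under DRF by 0.71 ± 0.16 (SE) at ZT0, 1.08 ± 0.16 (SE) at ZT4, 0.82 ± 0.16 (SE) at ZT8 and 0.88 ± 0.16 (SE) at ZT24. Nags was higher under DRF at ZT4, ZT8 and ZT12 and lower at ZT20 (-0.37 ± 0.11 (SE)) and ZT24 (-0.43 ± 0.11 (SE)).

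The NRF group at ZT16 was uneven. In NRF at ZT16, replicates 1 and 3 were below replicates 2 and 4 in 10 of 10 members, an order seen in 22.1% of all genes tested. The 4 livers held 16387, 17908, 23644 and 24467 scaled counts of Cps1, replicates 3 and 1 being the lower pair. Without replicate 3 of that group 3 of 10 members were called at ZT16, and without replicate 1 the count was 4. At ZT8 the count rose to 5 without NRF ZT8 replicate 3, and at ZT12 it fell to 2 without DRF ZT12 replicate 4.

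Each DRF time was also set against the NRF time 12 h away. A difference in daily mean or amplitude between regimens enters this comparison as well as one in timing, and 8 of 10 members had a higher daily mean under DRF. The shifted comparison differed in 10 of 10 members (40.5% of all genes and 68.5% of the 4515 abundant ones), and the unshifted one over the same livers in 9 of 10 (43.7% and 74.6%), Cps1 being the exception (adjusted p = 0.0837). The 2 comparisons share all livers and are not independent. The shifted difference sat at 2 of the 6 pairs. DRF at ZT16 against NRF at ZT4 was called in 10 of 10 members, all higher under DRF (17.1% of all genes were called, 9.31% higher, and 35.7% of the abundant ones were called), and DRF at ZT20 against NRF at ZT8 in 8 of 10, all higher (16.2% called, 7.75% higher, and 31.1% of the abundant ones called). At DRF ZT16 the log2 difference ranged from 0.37 ± 0.09 (SE) for Glud1 to 1.15 ± 0.16 (SE) for Asl, and Cps1 differed by 1.04 ± 0.18 (SE). At DRF ZT20 Asl differed by 1.504 ± 0.158 (SE). The libraries of DRF ZT16 summed to between 964327 and 1036660 scaled counts, and those of NRF ZT4 to between 831239 and 893644. Size factors by median-of-ratios scaling ran from 0.957 to 1.035 over all libraries. What these sums add to the difference at that pair was not tested. At the reverse pairs, DRF ZT4 against NRF ZT16 was called in 0 of 10 (14.6% of all genes, limma, with 1 member at an unadjusted p under 0.05) and DRF ZT8 against NRF ZT20 in 2 of 10 (11.4%), Cps1 and Slc25a15, both lower under DRF. At the 2 pairs at the light changes 2 of 10 were called each (5.48% of all genes and 11.8% of the abundant ones for DRF ZT0, 4.54% and 9.83% for DRF ZT12). The counts at these smaller pairs moved with single livers, to 4 at DRF ZT0 without NRF ZT12 replicate 4, to 2 at DRF ZT4 without NRF ZT16 replicate 3, to 0 at DRF ZT8 without DRF ZT8 replicate 1 or 2 or NRF ZT20 replicate 2 or 3, and to 0 at DRF ZT12 without DRF ZT12 replicate 1 or 2. They moved to 1 at DRF ZT4 without DRF ZT24 replicate 1 or 3 or NRF ZT16 replicate 4, to 1 at DRF ZT8 without NRF ZT20 replicate 1, and to 1 at DRF ZT12 without DRF ZT12 replicate 3 or 4, NRF ZT0 replicate 1, 2 or 3 or NRF ZT24 replicate 2 or 4.

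**Figure D4:**
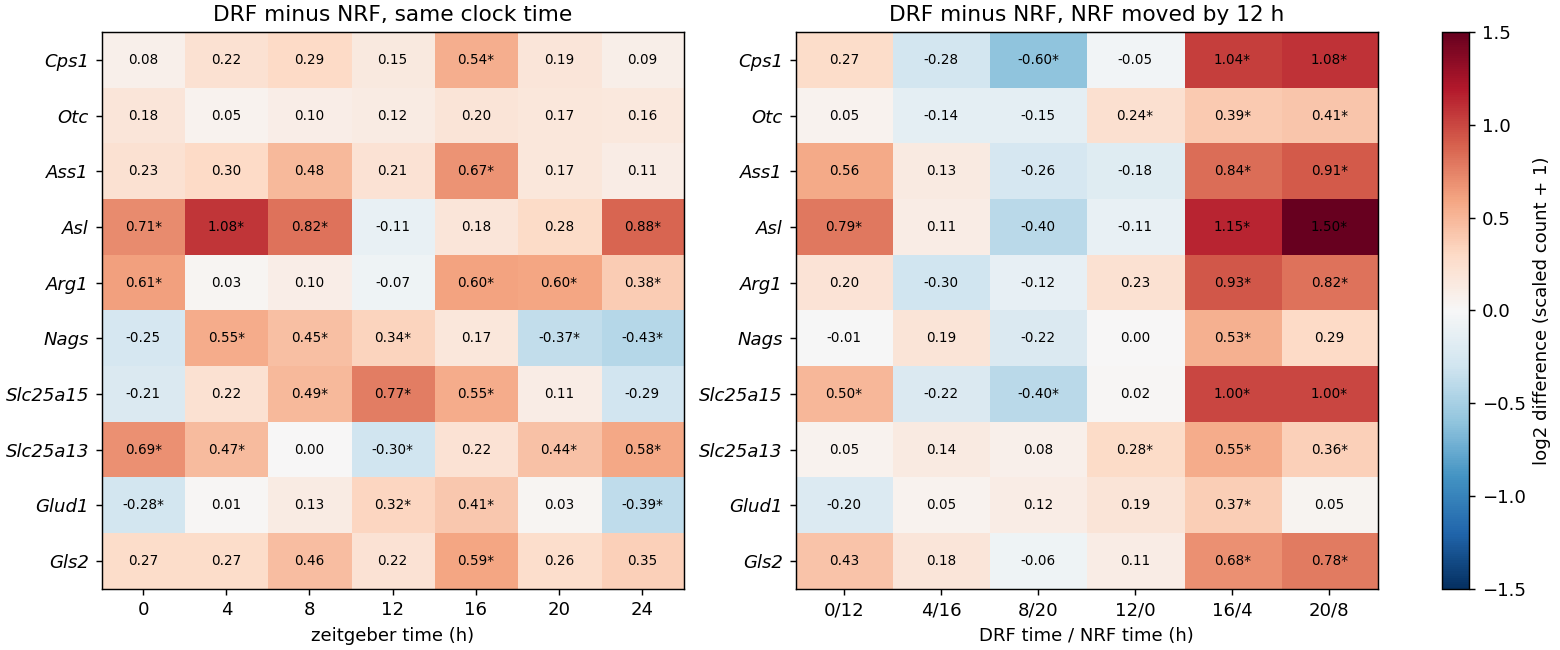
DRF minus NRF (log2 of scaled count + 1) for the 10 members at the same clock time (left) and with NRF moved by 12 h (right), where each column names the DRF time and the NRF time in h; an asterisk marks an adjusted p under 0.05. In the right panel the columns 16/4 and 20/8 hold 18 of the 24 asterisks.

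A 12-h component was called by limma under DRF in Nags (adjusted p = 0.0165) and Glud1 (0.0368), 2 of 10 members. The shares were 4.64% of all genes and 11.1% of the 4515 genes at least as abundant as Nags. Under NRF it was called in 0 of 10 (1.93% and 4.89%, limma, and 0 with an unadjusted p under 0.05). Under DRF it was lost in both genes without the ZT24 livers, and also without DRF ZT4 replicate 1 or replicate 4. It was left in 1 of the 2 without DRF ZT4 replicate 2 or 3, DRF ZT12 replicate 1 or 3, DRF ZT16 replicate 1 or 4, or DRF ZT24 replicate 2 or 4. Levels at ZT24 and ZT0, the same clock time a day apart, differed in 0 of 10 members under DRF (3.06% of all genes, limma, with 2 members at an unadjusted p under 0.05) and in 1 of 10 under NRF (7.81%), Otc, where ZT24 was higher (adjusted p = 0.0403), a call lost without any 1 of NRF ZT0 replicates 1, 2 and 3 and NRF ZT24 replicates 1, 2 and 3. Without NRF ZT16 replicate 3 the NRF count was 2.

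How the members varied together was described by Pearson's r over the 14 group means, which share livers and library factors. Between the 5 cycle enzymes and Gls2 r ran from 0.64 (Otc and Asl) to 0.92 (Ass1 and Gls2), with 0.85 for Asl and Gls2 and 0.83 for Otc and Arg1. Slc25a15 followed Cps1 (r = 0.86) and Ass1 (0.86) but not Slc25a13 (0.06). Glud1 was apart from the cycle enzymes (r from -0.23 with Asl to 0.16 with Ass1) and nearest to Nags (0.60).

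**Figure D5:**
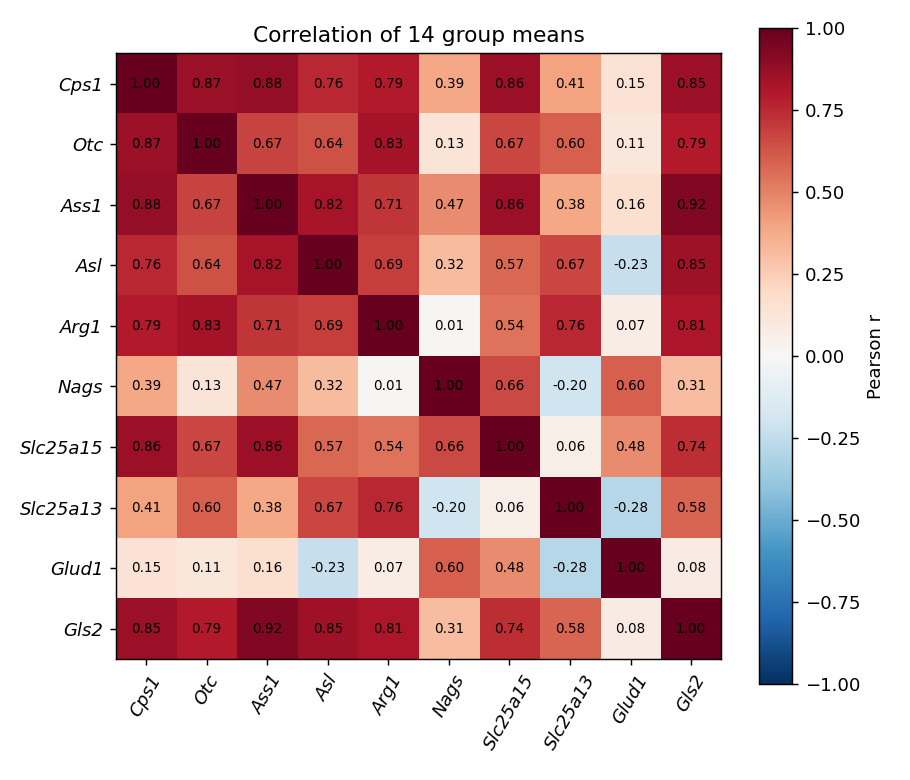
Pearson's r between the 10 members over 14 group means of log2(scaled count + 1), from -1 (blue) to 1 (red). The highest value is 0.92 (Ass1 and Gls2) and the lowest -0.28 (Slc25a13 and Glud1).

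Outside the set, the genes most like each member over the same 14 means were as follows. Cps1 was nearest to Ppp1cb (r = 0.95), Dpy19l1 (r = 0.93) and Tedc2 (r = 0.93). Otc was nearest to Mut (r = 0.98), Impad1 (r = 0.97) and Aldh6a1 (r = 0.97), of which Mut (methylmalonyl-CoA mutase) and Aldh6a1 belong to mitochondrial branched-chain and propionate breakdown. Ass1 was nearest to Gm5424 (r = 0.99), Gstk1 (r = 0.91) and Hgd (r = 0.90), the first being the near-identical copy named above. Asl was nearest to Rmnd1 (r = 0.95), Ahcy (r = 0.93) and Crcp (r = 0.92), and Arg1 to Gm36172 (r = 0.96), Tdo2 (r = 0.96) and Mmp7 (r = 0.95), of which Tdo2 opens tryptophan breakdown in the liver. Nags was nearest to Nomo1 (r = 0.94), Timmdc1 (r = 0.93) and Borcs5 (r = 0.93). Slc25a15 was near to Gfm2 (r = 0.94), Cyp2b10 (r = 0.94) and Mrrf (r = 0.93), and Slc25a13 to Ptgr2 (r = 0.96), Shpk (r = 0.96) and Fzd4 (r = 0.96). Glud1 was nearest to Slc13a3 (r = 0.93), Rps7 (r = 0.88) and 9330182L06Rik (r = 0.87), and Gls2 to Gstk1 (r = 0.96), Amy1 (r = 0.95) and Gstt3 (r = 0.94).

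Genes around the cycle were read from a list of 23 for ammonia, amino acid and urea handling, which also holds a carbonic anhydrase (Car5a), an ammonia channel (Rhbg) and the mitochondrial deacylases Sirt3 and Sirt5, and 3 of which (Glul, Slc1a2 and Oat) also stand among the pericentral markers. Of these 13 had a 24-h rhythm under DRF (34.7% of all genes) and 15 under NRF (43.3%), and 16 differed in rhythm (38.5%). The daily mean was higher under DRF in 10 (4.04%) and lower in 0 (2.67%). The median log2 difference of the list was 0.12, against -0.0018 over all genes. The 6 with the lowest adjusted p for a difference in rhythm are named. Slc1a2, the glutamate carrier of pericentral hepatocytes, peaked at ZT21.7 under DRF and ZT12.3 under NRF, 9.37 ± 0.465 h (SE) apart. Slc38a3, a glutamine carrier, was 8.38 ± 0.649 h apart, and Sirt3, a mitochondrial deacetylase, 11.9 ± 0.617 h apart. Odc1, which takes ornithine into polyamines, was 10.4 ± 0.772 h apart. Slc7a2, a cationic amino acid carrier, was 10.2 ± 1.11 h apart and Slc25a22, a mitochondrial glutamate carrier, 10.96 ± 1.07 h apart.

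A second list held 10 receptors and transcription factors known to act on urea cycle genes, of which 9 were tested (Nr3c1 was not among the tested genes). Of the 9, 5 cycled under DRF (34.7% of all genes) and 8 under NRF (43.3%), and 8 differed in rhythm (38.5%). The daily mean was higher under DRF in 1 (4.04%) and lower in 0 (2.67%). That gene was Ppargc1a, a coactivator induced by fasting, at 52.4 ± 15.7 scaled counts under DRF and 38.1 ± 10.5 under NRF (SD, n = 28 each, 0.34 ± 0.07 (SE) on the log2 scale, adjusted p = 0.0014). Its peaks were 10.4 ± 1.16 h apart. Cebpb and Cebpa, bZIP factors of hepatocytes, were 7.95 ± 1.53 and 10.9 ± 1.47 h apart. Gcgr, the glucagon receptor, had a rhythm that differed between regimens (adjusted p = 2.50e-05), although the DRF rhythm was not called (0.0763).

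Transcripts of the members in the deposited transcript table numbered from 1 (Cps1) to 10 (Gls2). On the deposited scale, the 14 group means of the transcript of each gene with the lowest GENCODE number went with those of the gene at r between 0.88 (Glud1) and 0.97 (Slc25a15) in 9 of 10 members, and at 0.63 for Slc25a13-201. The 2 tables share reads. Apart from the pairs given for Ass1 and Nags, near-identical transcripts were found for Glud1 (Glud-ps, 97.6% over 656 bases, mean level 0.536 scaled counts), and 97 exon bases of Gls2 overlap Spryd4 on the other strand.

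Promoter sequence was available from RefSeq (GRCm38.p6) for 6 of the 10 members, as 7 windows of 300 bases that run from 250 before to 50 after an annotated start. They are shown because 3 of the 7 windows hold the E-box CACGTG, the element bound by Arntl and its partners, which 7.15% of 32851 windows of the same length hold. The 3 genes differ in how far their peaks moved, by 1.78 h for Ass1, 3.97 h for Slc25a15 and 8.44 h for Slc25a13. The Otc window matches TTATGNAA, the letters searched for the D-box, as TTATGAAA (3.38% of windows match). The free base N makes this a loose match. TGACG, the core of the cyclic AMP response element, was in 2 of 7 windows (Nags and Slc25a13, against 20.8%). The full TGACGTCA, the C/EBP letters TTGCGCAA and TTGCNNAA, the HNF4 letters CAAAGTCCA and the glucocorticoid receptor letters ACANNNTGT were found in 0 of 7, against 1.79%, 0.183%, 10.8%, 0.475% and 6.85% of all windows. Both strands were searched, and TGACGTCA contains TGACG as TTGCNNAA matches every TTGCGCAA. Capitals mark the matches, 5′ to 3′ on the strand of the gene.
Ass1 promoter, chr2:31470020-31470319, plus strand: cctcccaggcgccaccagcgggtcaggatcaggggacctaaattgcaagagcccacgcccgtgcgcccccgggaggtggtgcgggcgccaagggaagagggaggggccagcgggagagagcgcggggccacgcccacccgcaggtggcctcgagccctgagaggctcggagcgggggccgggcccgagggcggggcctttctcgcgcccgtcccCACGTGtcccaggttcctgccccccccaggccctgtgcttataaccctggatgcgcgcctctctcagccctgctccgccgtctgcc
Slc25a15 promoter, chr8:22398228-22398527, minus strand: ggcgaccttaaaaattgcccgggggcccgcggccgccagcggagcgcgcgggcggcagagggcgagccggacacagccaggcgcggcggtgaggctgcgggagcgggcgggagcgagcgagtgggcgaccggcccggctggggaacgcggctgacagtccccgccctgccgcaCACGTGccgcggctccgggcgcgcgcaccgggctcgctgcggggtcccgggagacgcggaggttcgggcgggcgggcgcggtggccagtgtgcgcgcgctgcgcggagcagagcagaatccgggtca
Slc25a13 promoter, chr6:6217124-6217423, minus strand: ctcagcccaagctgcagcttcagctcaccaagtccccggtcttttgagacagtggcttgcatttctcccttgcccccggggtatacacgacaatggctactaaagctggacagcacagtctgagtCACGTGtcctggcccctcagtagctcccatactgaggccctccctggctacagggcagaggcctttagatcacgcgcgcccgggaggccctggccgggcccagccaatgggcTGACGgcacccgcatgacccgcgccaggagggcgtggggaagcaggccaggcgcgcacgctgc
Otc promoter, chrX:10252055-10252354, plus strand: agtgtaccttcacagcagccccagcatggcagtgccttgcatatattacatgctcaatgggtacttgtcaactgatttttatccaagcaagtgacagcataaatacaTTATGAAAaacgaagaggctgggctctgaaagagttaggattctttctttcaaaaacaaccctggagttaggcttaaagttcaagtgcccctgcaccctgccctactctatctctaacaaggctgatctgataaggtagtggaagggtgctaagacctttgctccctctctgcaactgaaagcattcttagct
The E-box began at base 215 of the Ass1 window, 174 of the Slc25a15 window and 126 of the Slc25a13 window, and the match to TTATGNAA at base 108 of the Otc window. A match of letters is a description and not a measured site.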

How the data were processed

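The 56 libraries were strand-specific, ribosomal RNA-depleted and read as 150-base pairs per the study's methods, although the labels name polyA RNA. The submitters' processing notes name CASAVA 1.8, featureCounts 1.5.0-p3, mm10 and GRCm38.p6; which aligner was used, and whether counting was stranded, is not given in the sources used here. The gene and transcript tables deposited by the authors are named TPM, but their values are a score. The deposited value times exon length was a scaled logarithm of a count, so it was inverted into a scaled count per gene. The inverted values came out whole within 0.05 in 96.8% to 97.1% of the values of genes not used to set a library's factor, up to a recovered count of 20000, above which all members but Nags lie, but they summed to more than the reads a library can plausibly hold, so they were not treated as reads, no count model was used and read depth is unknown. Of 25415 genes listed, 162 were left out because no length gave whole values or the inverted value was implausibly high, and no filter on low values removed a gene. The circular RNA table was not used. No column was left unassigned, and no table held the authors' comparisons.

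Tests were run with limma 3.58.1 in R 4.3.3 on log2(scaled count + 1) over all 56 libraries, with a mean-variance trend, and p-values were adjusted by Benjamini-Hochberg over 25253 genes. Fold changes are on that scale. 24-h and 12-h rhythms were cosine terms; peak times, amplitudes and their 95% intervals came from cosine fits (Python 3.11.15, scipy 1.17.1). Scripts were tested on simulated data. The members are named always, 6 genes of the first list and 4 of the second by lowest adjusted p of the rhythm difference, and 3 genes by likeness to each member. Members and lists were chosen with earlier results of these data known. Alternatives were the values as deposited, median-of-ratios scaling, a pseudocount of 0.1, a mean scaled count of at least 1, a replicate block, a correction for exon length, a rank test, leaving out ZT24 and leaving out each library.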

Additional observations from a re-analysis of the deposited data

Results flagged for a closer look

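Of 140 groups of 4 livers (10 members in 14 groups), 5 held a liver far from the other 3 by Dixon's criterion, where chance gives about 1 in 20 groups, or 7. Ass1 was low in NRF ZT24 replicate 1, at 9186 scaled counts against a median of 10952.5 in the others. Slc25a15 was high in NRF ZT0 replicate 3 (322 against 273). Slc25a13 was low in DRF ZT0 replicate 3 (1084 against 1171) and in NRF ZT20 replicate 1 (774 against 866). Gls2 was high in NRF ZT20 replicate 4 (269.9 against 243).

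The 24-h rhythm differed between DRF and NRF in 6 members by limma's test of the difference itself. The adjusted p was 5.10e-11 for Slc25a13, 3.58e-07 for Nags, 6.25e-07 for Glud1, 1.09e-06 for Slc25a15, 7.19e-06 for Asl and 3.81e-05 for Arg1.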

How the results depend on the processing

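Of the summary values under the alternatives, 142 stayed close to the reported value and 18 moved. The phase shift of Otc, whose interval held 0, ran from -0.22 to 1.16 h without single libraries, so its sign is not settled. On the values as deposited, which compress high counts, 17 member differences by time were called in place of 28, ZT24 against ZT0 gave 3 under DRF and 9 under NRF in place of 0 and 1, and the 12-h component under DRF gave 0 in place of 2. On those values the phase shifts were 2.73 h for Asl, 1.48 h for Arg1, -6.32 h for Nags, -2.89 h for Slc25a15, 4.34 h for Slc25a13 and -3.35 h for Glud1 (none is given on scaled counts, where its NRF rhythm was not called). On the values as deposited 1 of 10 members kept its rank by level, and the lowest r of the genes named by likeness was 0.755. There the mean differences of Cps1 (adjusted p = 0.151) and Otc (0.198) and the rhythm difference of Arg1 (0.0654) were not called by limma, nor was a difference at any time for Otc (0.103) or Ass1 (0.0772), while an NRF rhythm was called for Glud1 (0.0166). A difference at any time was called for Cps1 with a mean scaled count of at least 1 (0.0189) or the length correction (0.0375) and lost for Otc without ZT24 (0.0527). Correcting for exon length gave 1 call under DRF and 3 under NRF for ZT24 against ZT0. Without ZT24 libraries the 12-h component gave 0. Leaving out 1 library moved the ZT24 against ZT0 count under NRF between 0 and 2 and the 12-h count under DRF between 0 and 2. Over all genes, ZT24 against ZT0 gave 773 calls under DRF, 1786 as deposited and 6013 length-corrected, and 1971 under NRF, 5876 and 8555. The 12-h component gave 1173 calls under DRF and 472 as deposited, and 488 and 177 under NRF. The shifted comparison gave 10226, and 15937 length-corrected. The causes were not tested. Replicate numbers did not pair the livers (median correlation 0.0048 for the same number, 9.89% of pairs over 0.1), and the replicate block left 10 members rhythmic under DRF, 9 under NRF, 6 different in rhythm and 8 in the mean.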

Other observations

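Oat, which links ornithine to glutamate in pericentral hepatocytes, was chosen after its values were seen. Its daily mean was 1684 ± 374 scaled counts under DRF and 998 ± 224 under NRF (SD, n = 28 each), a log2 difference of 0.71 ± 0.08 (SE, limma adjusted p = 3.48e-09 over all genes).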
